A study of Homo sapiens with 8 samples.

Results

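Receptor tyrosine kinases outside the EGFR family were examined gene by gene in lung tumour xenografts with and without SMARCA4. The set held 53 genes, taken by symbol from a list of receptors, out of 59050 gene symbols counted in each tumour. That list was chosen with earlier results of these data known. The tumours were grown from the cell line H2122, which is established and derives from a human lung cancer. The 4 parental tumours carried SMARCA4 as the line does (labelled WT) and the other 4 came from H2122 cells with SMARCA4, the motor subunit of SWI/SNF chromatin remodellers, knocked out. All 8 tumours came from the vehicle arm. The labels do not give the host strain, its age, how the gene was disrupted or whether the knockout cells were 1 clone, and nothing in them states that replicates came from separate animals, so the p-values measure the spread between these samples.

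Receptor tyrosine kinases are membrane proteins that bind a growth factor, a ligand on a neighbouring cell or the matrix outside the cell and, once clustered, phosphorylate each other and their adaptors inside it. In lung carcinoma MET, RET, ALK, ROS1 and the FGF receptors are known as drivers or as routes of resistance to kinase inhibitors, and AXL is known for the latter. Eph receptors form the largest family, bind ephrins tethered to adjacent cells and are known for sorting cells at boundaries. Some members, such as EPHB6, PTK7 and RYK, are considered to lack ordinary kinase activity and to act through partners, and LMTK2, LMTK3 and AATK are grouped with receptor tyrosine kinases by sequence although they are thought to phosphorylate serine and threonine.

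The libraries held 19785922 to 23191698 gene counts each, and SMARCA4 itself was at 198 to 235 CPM in parental and 22.3 to 31.1 CPM in knockout tumours (p = 0.0286 by an exact two-sided permutation test, which cannot give less with 4 against 4), CPM being counts per 1000000 of the scaled library. Reads were counted on the human genome hg38, and any separation of mouse reads is not given. Whether counts of markers of other cell types came from host cells or from the human tumour cells was not tested. Parental replicates 2 and 3 stood apart in such markers. The summed level of 12 leukocyte markers was 108 and 92.9 CPM there against 15.8 to 40.5 CPM in the other 6 tumours, and 11 skeletal muscle markers summed to 44.8 CPM in parental replicate 2 against 2.73 to 19.5 CPM elsewhere.

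Of the 53 genes, 34 had enough counts to be tested and 19 did not. Of the 34, 14 changed between the groups by edgeR's quasi-likelihood test with Benjamini-Hochberg adjusted p under 0.05 (41.2%, against 27.0% of all 16219 genes tested), 6 higher in knockout tumours (17.6%, against 13.0%) and 8 lower (23.5%, against 14.1%). A change of at least 2-fold was seen for 6 of the 14, with FLT4 higher and EPHB1, EPHB6, EPHA6, KIT and FGFR3 lower (10.4% of all genes tested passed both limits). The 4 knockout values lay entirely to one side of the 4 parental values for 13 of the 34 genes (38.2%, against 29.3% of all genes tested), all of them among the 14. The median log2 fold change of the 34 was -0.16, against 0.00345 for all genes tested. Without knockout replicate 1, 3 genes were called higher.

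**Figure D1:**
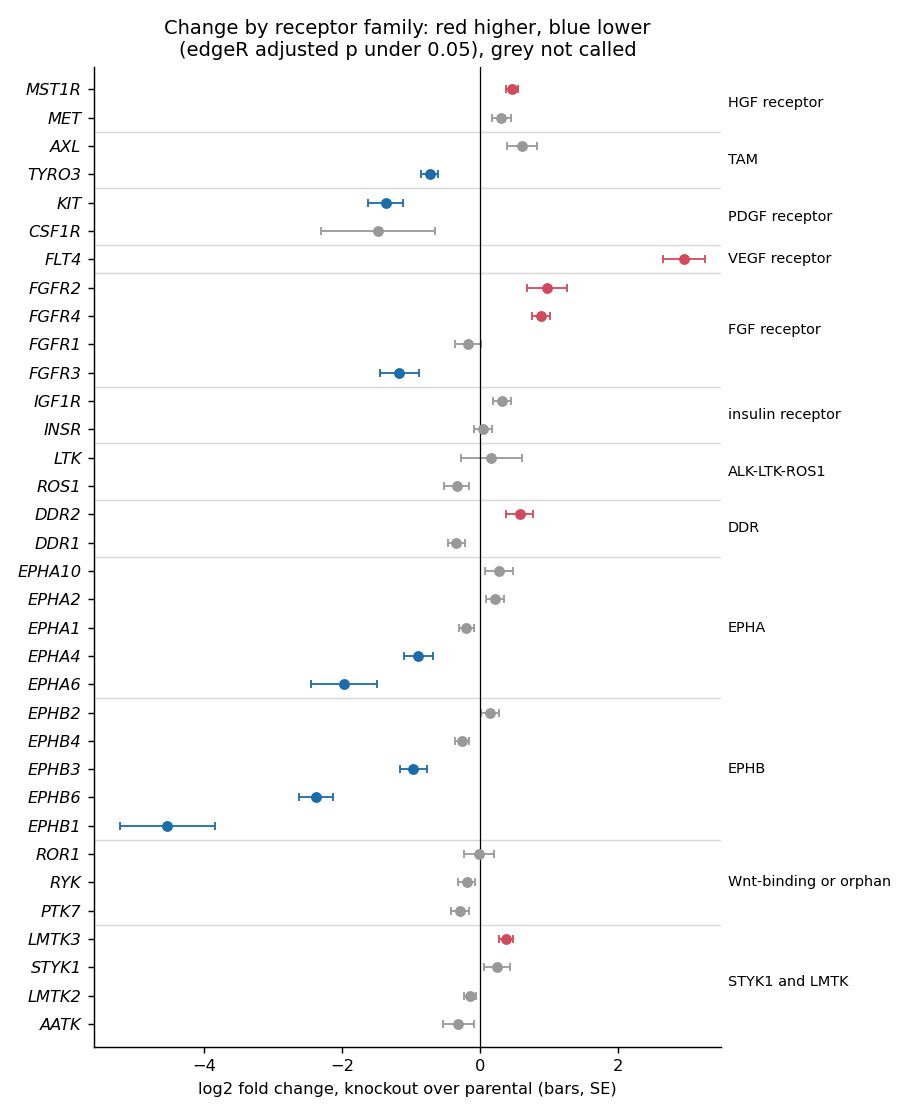
Log2 fold change of knockout over parental tumours (horizontal axis, bars show the SE) for the 34 tested receptor kinase genes, grouped by family, with 4 tumours in each group. The 6 red genes were called higher and the 8 blue genes lower by edgeR at an adjusted p under 0.05; the 5 called Eph receptors all lie left of 0, and EPHB1 is farthest from it at -4.54.

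The promoter sequences of called genes that went opposite ways are shown to compare their composition. RefSeq (GRCh38.p14) gave a promoter for 48 of the 53 genes, and the 250 bases before the start site were used. For FGFR3, which fell, and FGFR4, which rose, and for EPHB1 and EPHB3, which both fell, capitals mark the GC box, searched as GGGCGG or its reverse complement CCGCCC.
FGFR3 (chr4:1793043-1793292, plus strand): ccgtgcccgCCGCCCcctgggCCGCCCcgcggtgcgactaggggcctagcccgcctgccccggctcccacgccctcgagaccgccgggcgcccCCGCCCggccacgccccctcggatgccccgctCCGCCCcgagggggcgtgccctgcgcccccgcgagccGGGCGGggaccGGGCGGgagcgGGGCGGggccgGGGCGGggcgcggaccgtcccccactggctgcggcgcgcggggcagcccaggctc
FGFR4 (chr5:177086665-177086914, plus strand): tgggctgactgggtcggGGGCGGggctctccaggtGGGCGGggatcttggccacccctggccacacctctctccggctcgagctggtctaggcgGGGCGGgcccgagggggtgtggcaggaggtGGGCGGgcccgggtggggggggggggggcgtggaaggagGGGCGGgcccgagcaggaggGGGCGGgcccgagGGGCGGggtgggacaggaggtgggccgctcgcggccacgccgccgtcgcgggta
EPHB1 (chr3:134795010-134795259, plus strand): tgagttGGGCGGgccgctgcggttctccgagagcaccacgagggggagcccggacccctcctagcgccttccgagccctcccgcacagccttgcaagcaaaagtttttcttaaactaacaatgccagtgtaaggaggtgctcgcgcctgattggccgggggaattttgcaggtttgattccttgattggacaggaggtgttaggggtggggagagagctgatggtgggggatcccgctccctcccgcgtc
EPHB3 (chr3:184561535-184561784, plus strand): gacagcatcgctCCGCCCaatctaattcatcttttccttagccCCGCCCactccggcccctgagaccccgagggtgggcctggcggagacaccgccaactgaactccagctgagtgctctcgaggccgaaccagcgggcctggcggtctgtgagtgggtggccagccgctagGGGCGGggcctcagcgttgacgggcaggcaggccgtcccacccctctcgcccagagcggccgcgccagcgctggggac

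FGFR3 and FGFR4 changed in opposite directions with 8 and 7 GC boxes in this window and a G and C content of 86.8% and 79.6%. EPHB1 and EPHB3 held 1 and 3 boxes, at 60.8% and 70% G and C. A GC box was present in 36 of the 48 member promoters (75%), against 65.5% of the 10990 promoters of tested genes and 42.6% of all 35116 promoters of the table. It was in 8 of 8 promoters of genes that fell, in 4 of 5 of those that rose and in 12 of 17 of those not called. The AP-1 motif TGANTCA, which reads the same on both strands, was in 3 of the 48 windows (6.25%, against 4.38% of tested genes), among them that of TYRO3. These matches describe letters in a short window and not occupied sites.

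Of the 12 receptors with the highest mean transcript level, MST1R alone passed the test, as did 27.0% of all 16219 genes tested. Levels of different genes were compared as CPM per kilobase of annotated exon and ordered by their mean over the 8 tumours. EPHA2, a receptor for ephrin-A ligands, was at 38.1 ± 5.78 in parental and 44.1 ± 6.73 CPM per kb in knockout tumours (SD, n = 4 each). DDR1, which senses collagen, was at 38.3 ± 6.65 and 30.2 ± 3.22 CPM per kb, the highest mean in parental and the 4th highest in knockout tumours, and EPHB4, a receptor of ephrin-B2, at 30.8 ± 1.66 and 25.6 ± 3.26 CPM per kb. These genes, MST1R and MET were the 5 highest in both groups, and together they held 63.9% to 68.5% of the per-kb sum of the 53 genes in every tumour. IGF1R, the IGF receptor, at 20.2 ± 3.56 and 25.2 ± 3.13 CPM per kb, and LMTK2 at 15.2 ± 1.38 and 13.8 ± 0.942 CPM per kb came next. The range over the 8 tumours of each of the first 5 genes overlapped the ranges of its neighbours in this order. Below LMTK2 the level fell to 6.01 ± 1.09 and 5.25 ± 0.234 CPM per kb at RYK, a Wnt receptor, with EPHB2, EPHA1, AATK and the insulin receptor gene INSR after it (3.21 to 5.52 CPM per kb in group means). These first 12 genes held 88.5% to 92.2% of the sum, and 1 of them, MST1R, was called. In each group's own order INSR was 13th, and the 12th gene was KIT in parental and LMTK3 in knockout tumours, so that 2 of the 12 were called genes in either. Per kilobase of the longest transcript the same 12 genes were first, but DDR1 led at 75.4 CPM per kb over the 8 tumours, against 43.2 for EPHA2, and FGFR1 moved from 22nd to 14th. Among the 7 genes with a group mean of at least 100 CPM that 1 was again the only call, against 31.1% of the 2289 genes tested at that level, and the 7 fold changes were at most 1.37-fold. The 14 called genes had a median level of 5.22 CPM, against 26.9 CPM for the 20 that were not called. Whether receptors of high level changed less often than other genes was not tested, and these counts are small.

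**Figure D2:**
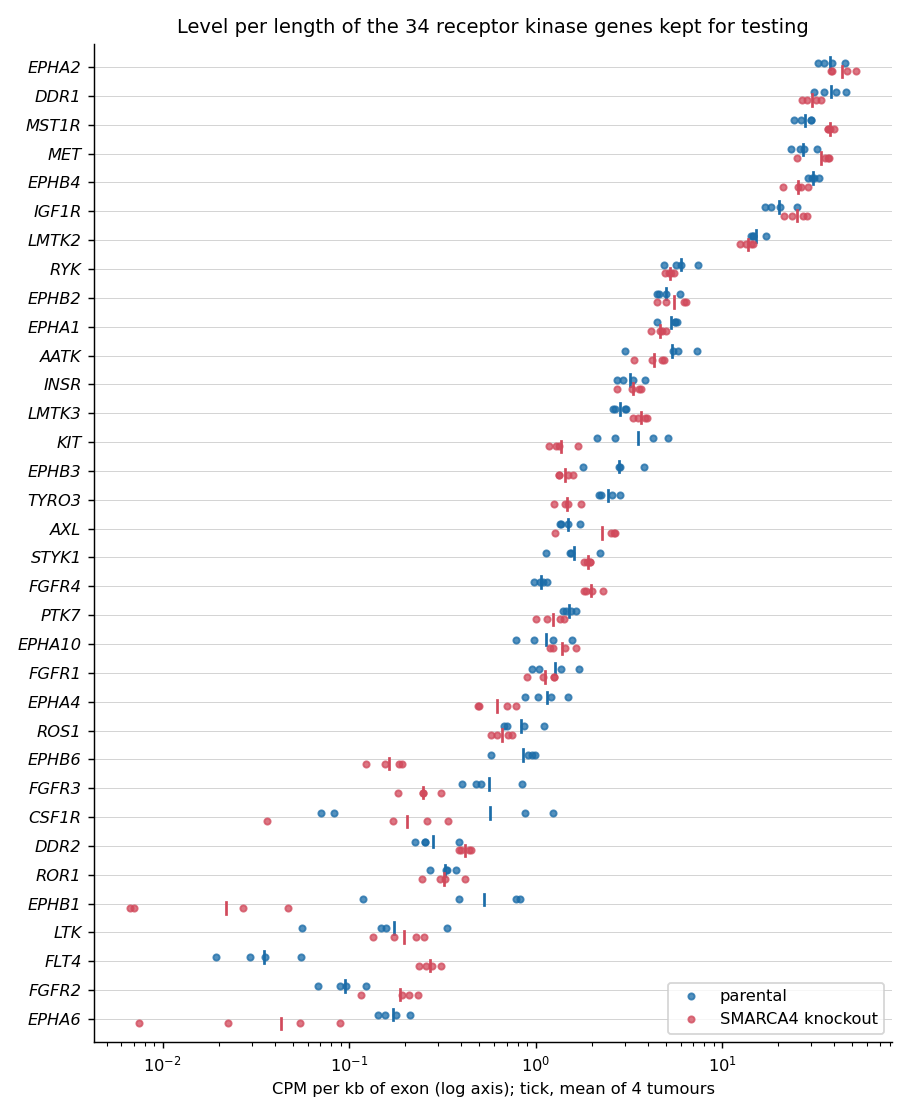
CPM per kilobase of exon (log axis) in each of the 8 tumours for the 34 tested receptor kinase genes, ordered by their mean; ticks mark the mean of the 4 tumours of a group. Points of the 2 groups largely overlap in the upper rows, from EPHA2 to INSR, apart from MST1R, and separate in lower rows such as EPHB6, EPHB1 and FLT4.

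MST1R and MET, the receptors of macrophage-stimulating protein and hepatocyte growth factor, both had higher means in knockout tumours, and MST1R passed the test. MST1R (chromosome 3, 49887002 to 49903873, minus strand, GENCODE 29 on GRCh38) was at 157, 139.7, 157 and 128 CPM in parental replicates 1 to 4 and at 209, 195, 200.1 and 195 CPM in knockout replicates 1 to 4. All knockout tumours were above all parental ones, and the log2 fold change was 0.46 (edgeR adjusted p = 0.00262, with an SE of 0.0879). MET (chromosome 7, 116672390 to 116798386, plus strand) was at 192, 227, 166 and 185 CPM in parental and at 261, 252, 264 and 177 CPM in knockout tumours. Knockout replicate 4 was the only knockout tumour inside the parental range, and the difference of 0.31 (SE 0.138) was not called (adjusted p = 0.123). Without that tumour, which went against it, the difference was 0.43 (adjusted p = 0.0160). MET was called in only 1 of the 8 fits that left out 1 tumour (edgeR adjusted p of up to 0.266). Of their ligands, MST1 was at 20.1 ± 8.04 and 33.2 ± 3.004 CPM (log2 fold change 0.72, adjusted p = 0.0532), and HGF was counted 17 times over the parental and 31 times over the knockout libraries. ST14, a membrane protease that activates both ligands, fell by 0.49 on the log2 scale (adjusted p = 0.00178).

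In the TAM family, which binds GAS6 and protein S, TYRO3 fell, AXL was not called, MERTK was under the limit for testing and the ligand gene PROS1 rose. TYRO3 (chromosome 15, 41557675 to 41583586, plus strand) was at 28.0, 24.6, 23.8 and 31.2 CPM in parental and at 15.7, 13.7, 19.1 and 16.2 CPM in knockout tumours. The groups did not overlap, and TYRO3 fell by 0.73 on the log2 scale (adjusted p = 0.00133, with an SE of 0.126). AXL (chromosome 19, 41219203 to 41261766, plus strand) was at 7.09, 6.93, 8.93 and 7.65 CPM in parental and at 13.6, 13.1, 13.7 and 6.54 CPM in knockout tumours. Knockout replicates 1 to 3 were all above the parental range and knockout replicate 4 was below it. The difference in AXL was not called (log2 fold change 0.61, SE 0.216, adjusted p = 0.0567). It was 0.81 without knockout replicate 4 (adjusted p = 0.00146), the tumour that went against it. AXL was called in only 1 of the 8 fits that left out 1 tumour (edgeR adjusted p of up to 0.143). PROS1, which encodes protein S, rose from a range of 4.66 to 8.40 CPM in parental to one of 31.3 to 40.9 CPM in knockout tumours (log2 fold change 2.43, SE 0.194, adjusted p = 7.27e-06), and was the ligand with the smallest p of the 31 tested. GAS6, the other ligand, was at 9.94 ± 1.71 and 13.7 ± 2.08 CPM (0.46, adjusted p = 0.0487), a call that was lost in 6 of the 8 fits that left out 1 tumour. MERTK, the third receptor, had 17 parental and 8 knockout counts.

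Among receptors of the PDGF receptor family, KIT was the one with a clear level. KIT, the receptor of stem cell factor (chromosome 4, 54657918 to 54740715, plus strand), was at 14.9, 28.6, 23.8 and 11.8 CPM in parental and at 7.20, 9.36, 7.42 and 6.58 CPM in knockout tumours. The lowest parental value was above the highest knockout value, and parental replicates 2 and 3 were the highest. KIT fell by 1.37 on the log2 scale (adjusted p = 0.00209, with an SE of 0.254). CSF1R, the receptor of macrophage colony-stimulating factor (chromosome 5, 150053291 to 150113372, minus strand), was at 0.363, 6.40, 4.51 and 0.425 CPM in parental and at 1.35, 1.76, 0.887 and 0.187 CPM in knockout tumours. Its groups overlapped and it was not called (-1.48, SE 0.834, adjusted p = 0.221). For both genes the 2 highest tumours were those with the highest leukocyte marker sums. In bulk RNA fewer cells of a type and less RNA per cell cannot be told apart. Nor can reads of host cells and of the human tumour cells be told apart in these counts. Without parental replicates 2 and 3, a setting added after the data were seen, KIT was lower by a log2 fold change of -0.81 (adjusted p = 0.00601) and CSF1R had the opposite sign, at 1.38 (adjusted p = 0.161). Of the 9 leukocyte markers tested, CYBB alone was called, lower in knockout tumours, and the 12 markers summed to 15.8 to 108 CPM in parental and 21.4 to 40.5 CPM in knockout ones (permutation test, exact and two-sided, p = 0.4). KITLG, the stem cell factor gene, was at 43.7 ± 7.05 and 48.3 ± 5.91 CPM and did not pass the test (adjusted p = 0.457). PDGFRA and PDGFRB, known for fibroblasts and pericytes, had at most 11 counts in any library, and FLT3 at most 4.

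**Figure D3:**
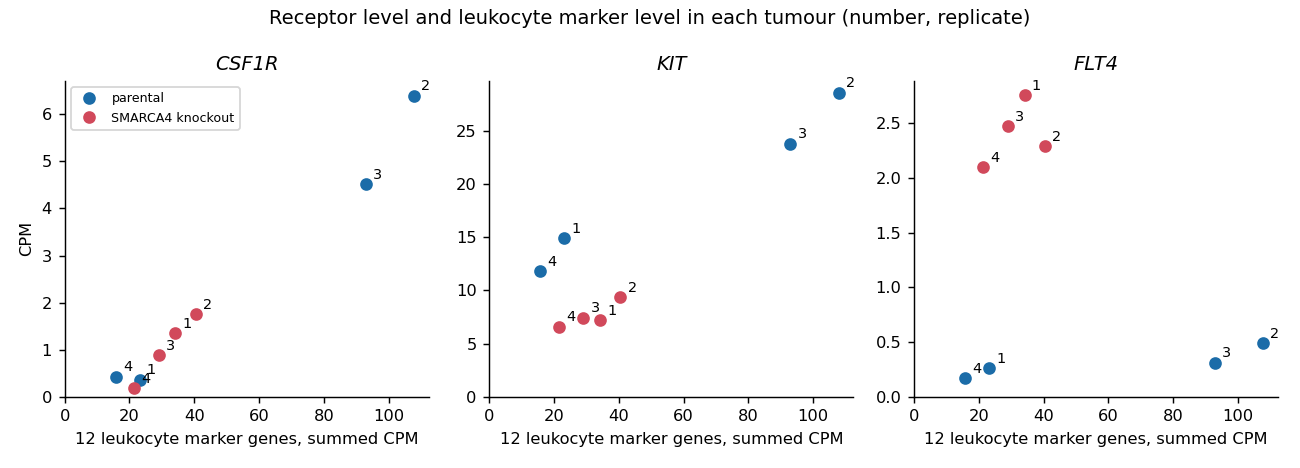
CPM of CSF1R, KIT and FLT4 (vertical axes) against the summed CPM of 12 leukocyte marker genes (horizontal axis) in each tumour, numbered by replicate. Parental replicates 2 and 3, at 108 and 92.9 CPM of markers, are the 2 highest tumours for CSF1R and KIT, while the 4 knockout tumours are the highest for FLT4.

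FLT4 had the largest rise of the 34 tested genes. It encodes VEGFR3, the receptor of VEGF-C and VEGF-D, known for lymphatic endothelium (chromosome 5, 180601506 to 180649624, minus strand). It had 5, 10, 7 and 4 counts in parental and 59, 47, 53 and 45 counts in knockout tumours, or 0.170 to 0.488 against 2.101 to 2.76 CPM. The groups were far apart, and the log2 fold change was 2.96 (edgeR adjusted p = 3.64e-05, with an SE of 0.302), and it ranged from 2.74 to 3.26 when any 1 tumour was left out. The level stayed low, at 0.272 ± 0.0315 CPM per kb in knockout tumours. FLT1 had 14 parental and 8 knockout counts and KDR 38 and 9, so the vascular endothelial receptors were under the limit for testing. The 11 endothelial markers summed to 16.9 to 26.3 CPM in parental and 25.9 to 32.4 CPM in knockout tumours (permutation test, exact and two-sided, p = 0.0571), and their part in the FLT4 value was not tested. CDH5, known for endothelium, had 2, 1, 26 and 7 counts in parental tumours (36 in all, 10 without parental replicate 3). It had 0 in knockout tumours, which allows up to 0.0351 CPM over the 4 libraries. Whether these few counts came from host or tumour cells was not tested. VWF fell from 1.97 ± 0.806 to 0.378 ± 0.0709 CPM, PECAM1 was not called (adjusted p = 0.504) and EGFL7 rose from 8.70 ± 0.885 to 17.7 ± 0.994 CPM. The rise in the mean of the marker sum, from 19.7 to 28.6 CPM, was about that of EGFL7 alone. Of its ligands, VEGFD had 25 parental and 71 knockout counts (1.49, adjusted p = 0.0193), a call lost without parental replicate 3, parental replicate 4 or knockout replicate 4, and VEGFC was at 23.4 ± 2.01 and 27.0 ± 3.12 CPM (adjusted p = 0.199). NRP2, a co-receptor of VEGF-C, rose from 51.7 ± 5.75 to 130.3 ± 13.1 CPM (1.33, adjusted p = 7.34e-06).

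The 4 FGF receptors differed in direction. FGFR4 (chromosome 5, 177086886 to 177098144, plus strand) was at 5.13, 4.74, 5.54 and 5.31 CPM in parental and at 8.97, 9.65, 8.73 and 11.1 CPM in knockout tumours. The groups did not overlap, and FGFR4 rose by 0.89 on the log2 scale (adjusted p = 0.000478, with an SE of 0.132). FGFR3 (chromosome 4, 1793293 to 1808872, plus strand) was at 2.33, 1.95, 4.11 and 2.47 CPM in parental and at 0.888, 1.51, 1.21 and 1.21 CPM in knockout tumours. Here every knockout tumour was below every parental one, with a log2 fold change of -1.17 (adjusted p = 0.00935, with an SE of 0.279). FGFR2 (chromosome 10, 121478334 to 121598458, minus strand), at 0.518 to 0.938 and 0.878 to 1.77 CPM, was called higher (0.98, SE 0.291, adjusted p = 0.0279) although its groups overlapped. The FGFR2 call was lost without parental replicate 1 or 4 or without knockout replicate 1, 3 or 4 (adjusted p of up to 0.0810). FGFR1, the family member with the highest count, was at 17.6 ± 4.81 and 15.6 ± 2.32 CPM (SD, n = 4 each) and did not pass the test (-0.18, SE 0.185, adjusted p = 0.523). FGFRL1, a related receptor without a kinase domain, rose from 123 ± 22.5 to 182 ± 17.2 CPM (0.56, adjusted p = 0.00811). FGFBP1, which releases FGFs from the matrix, rose from 6.52 ± 1.41 to 14.1 ± 2.13 CPM (1.11, adjusted p = 0.000633).

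All 5 Eph receptors that changed were lower in knockout tumours, out of 10 tested and 14 in the set (14.1% of all genes tested were called lower). EPHA5, which had too few counts for that test, was called higher in the fit with no filter, from 1 parental and 18 knockout counts (adjusted p = 0.0139). Eph receptors are split by ligand into an A and a B class, and 2 of 5 tested A receptors and 3 of 5 tested B receptors fell. EPHB1 (chromosome 3, 134597801 to 135260467, plus strand) was at 2.69, 0.830, 5.72 and 5.44 CPM in parental and at 0.0467, 0.0488, 0.327 and 0.187 CPM in knockout tumours. Although parental tumours differed widely, the groups did not overlap, and the pooled counts were 325 and 13. The log2 fold change of EPHB1 was -4.54 (adjusted p = 0.000598, with an SE of 0.693). It ranged from -5.20 to -4.24 when any 1 tumour was left out, and was -5.20 without knockout replicate 3, which held 7 of the 13 counts. EPHB6 is an Eph receptor known for an inactive kinase domain (chromosome 7, 142855061 to 142871094, plus strand). It was at 3.06, 5.08, 4.82 and 5.31 CPM in parental and at 1.03, 0.8288, 0.980 and 0.654 CPM in knockout tumours. The groups were well apart, and EPHB6 fell by 2.38 on the log2 scale (adjusted p = 3.81e-05, with an SE of 0.245). EPHB3 (chromosome 3, 184561784 to 184582409, plus strand) was at 12.6, 8.10, 12.9 and 17.2 CPM and at 6.07, 6.73, 6.02 and 7.24 CPM. The lowest parental tumour, replicate 2, was close to the knockout range, and EPHB3 fell by 0.97 (adjusted p = 0.00415, with an SE of 0.200).

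EPHA4 and EPHA6 were the A-class receptors that fell. EPHA4, which binds ephrins of both classes (chromosome 2, 221418027 to 221574202, minus strand), was at 7.82, 6.64, 9.16 and 11.3 CPM in parental and at 3.69, 3.75, 5.93 and 5.32 CPM in knockout tumours. Its groups did not overlap, and it fell by 0.90 on the log2 scale (adjusted p = 0.00848, with an SE of 0.211). EPHA6 (chromosome 3, 96814581 to 97752460, plus strand) had 19, 23, 30 and 21 counts in parental and 1, 7, 12 and 3 counts in knockout tumours. The groups were again apart (-1.98, SE 0.474, adjusted p = 0.00972). The log2 fold change ranged from -2.60 to -1.63 when any 1 tumour was left out. It was -2.60 without knockout replicate 3, the highest of the knockout tumours. EPHA2, EPHA1, EPHA10, EPHB2 and EPHB4 did not pass the test. EPHA2 was at 162, 191, 136 and 146 CPM in parental and at 218, 159.9, 195 and 162 CPM in knockout tumours, which overlapped (0.21, SE 0.131, adjusted p = 0.268). EPHB4 was at 187, 199, 212 and 195 CPM and at 187, 164, 171 and 137 CPM, with 3 of 4 knockout tumours below the parental range (-0.27, SE 0.101, adjusted p = 0.0712). Since EPHA2 and EPHB4 hold most Eph counts, the summed A-class level was 203 ± 23.0 and 222 ± 27.5 CPM, and the summed B-class level 282 ± 15.3 and 241 ± 29.9 CPM (SD, n = 4 each).

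The ephrins, ligands of these receptors, changed in both directions. Of the 7 ephrin genes tested 3 were called higher and 2 lower, against 13.0% and 14.1% of all genes tested. EFNA1, a ligand of EPHA2, was at 141, 218, 208 and 157 CPM in parental and at 463, 354, 331 and 269 CPM in knockout tumours (0.97, SE 0.179, adjusted p = 0.00206). EFNB2, the ligand of EPHB4, was at 91.0, 98.5, 97.1 and 67.6 CPM and at 149, 152, 127 and 152 CPM (0.71, SE 0.122, adjusted p = 0.00133). Both were higher in every knockout tumour than in any parental one, as was EFNA3 at 7.01 ± 1.21 and 13.8 ± 1.60 CPM (0.98, adjusted p = 0.000605). EFNB1, a ligand of EPHB1 and EPHB3, went the other way, from 19.8, 18.9, 19.8 and 16.4 CPM to 9.06, 8.82, 10.03 and 9.38 CPM (-1.01, SE 0.108, adjusted p = 5.02e-05). EFNA2 was called lower from 104 and 50 pooled counts, a call lost in 5 of the 8 fits that left out 1 tumour. EFNA5 was level at 94.6 ± 2.11 and 94.3 ± 3.29 CPM, with a log2 fold change of -0.0042 (SE 0.0706).

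**Figure D4:**
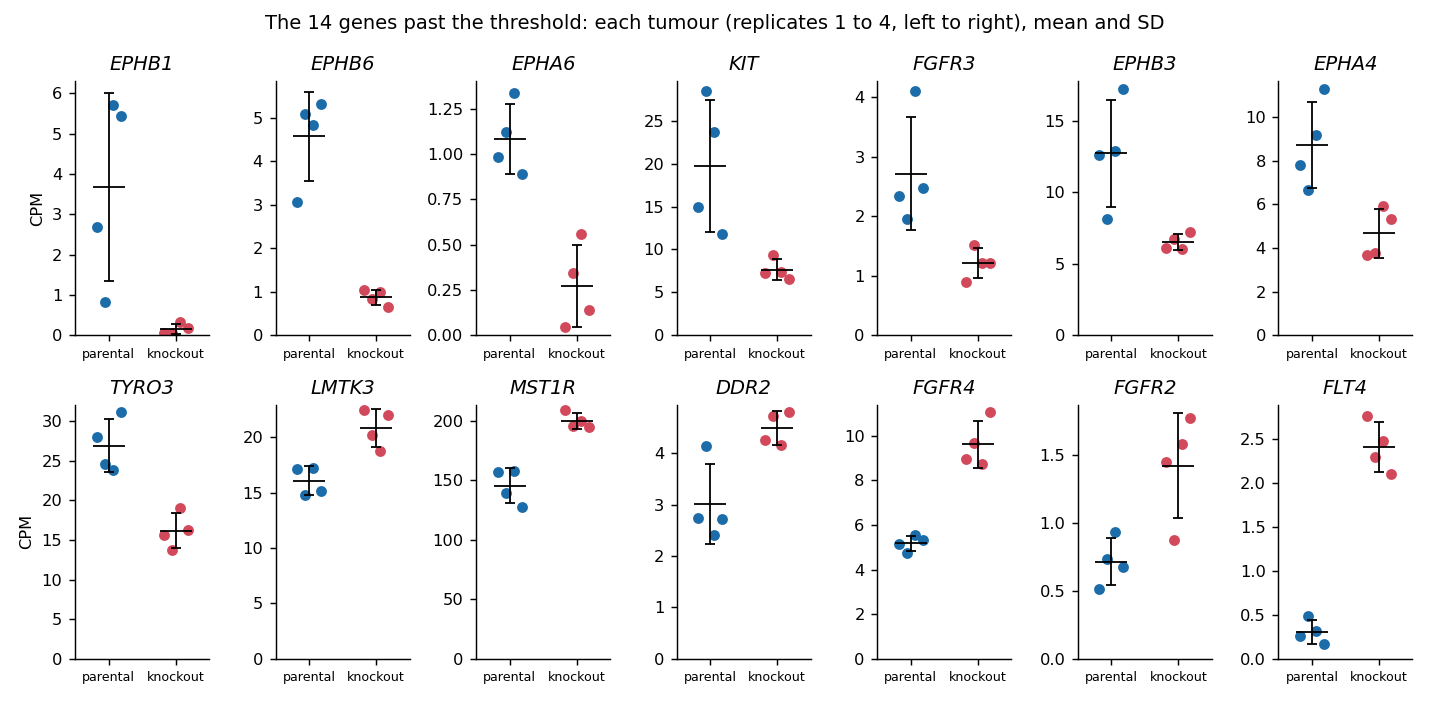
CPM in each tumour for the 14 genes called by edgeR at an adjusted p under 0.05, from the most negative to the most positive log2 fold change, with the mean and SD of the 4 tumours of each group. In 13 of the 14 panels the groups do not overlap, and FGFR2 is the exception; EPHB1 ranges from 0.830 to 5.72 CPM among parental tumours.

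In the remaining families DDR2 and LMTK3 were the only calls, both higher in knockout tumours. DDR2, the collagen receptor known for mesenchymal cells (chromosome 1, 162631373 to 162787400, plus strand), was at 2.74, 4.15, 2.41 and 2.72 CPM in parental and at 4.25, 4.73, 4.15 and 4.81 CPM in knockout tumours. The highest parental value all but touched the lowest knockout value, and the call was marginal (0.58, SE 0.195, adjusted p = 0.0475). It was lost in 7 of the 8 fits that left out 1 tumour and remained without parental replicate 2. Of 10 fibroblast and pericyte markers tested, LUM (33 parental and 1053 knockout counts, 32.0-fold) and CSPG4 (16 and 133 counts, 8.11-fold) were called higher and none lower, and the 12 markers summed to 511 to 975 CPM in parental and 588 to 899 CPM in knockout ones (permutation test, exact and two-sided, p = 0.8). COL1A1 and NOTCH3 made up 96.6% of that sum in parental and 94.7% in knockout tumours. The part of these markers in the DDR2 value was not tested. DDR1 (chromosome 6, 30876421 to 30900156, plus strand) was at 321, 373, 422 and 283 CPM and at 308, 259, 292 and 244 CPM, and was not called (-0.34, SE 0.128, adjusted p = 0.0698). LMTK3 (chromosome 19, 48485271 to 48513935, minus strand) was at 17.1, 14.8, 17.2 and 15.1 CPM in parental and at 22.5, 20.2, 18.8 and 22.0 CPM in knockout tumours. It was higher in all 4 (0.38, SE 0.103, adjusted p = 0.0195), and without knockout replicate 1 the adjusted p was 0.0646.

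IGF1R, INSR, RYK, PTK7, ROR1, ROS1, LTK, STYK1, LMTK2 and AATK were tested and not called. IGF1R (chromosome 15, 98648539 to 98964530, plus strand) was at 255, 349.7, 237 and 284 CPM in parental and at 396, 329, 378 and 301 CPM in knockout tumours. The overlap came from parental replicate 2 (0.32, SE 0.132, adjusted p = 0.0996), and without that tumour the difference was 0.44 (adjusted p = 0.0159). IGF1R was called in only 1 of the 8 fits that left out 1 tumour (edgeR adjusted p of up to 0.240). Its ligand gene IGF1 was called lower, at 1.69 ± 0.482 and 0.923 ± 0.205 CPM (-0.86, SE 0.276, edgeR adjusted p = 0.0382). That call was kept in 2 of the 8 fits that left out 1 tumour. INSR was at 33.6 ± 5.15 and 34.7 ± 4.42 CPM. ROS1, known for gene fusions in lung cancer, was at 6.57 ± 1.56 and 5.20 ± 0.605 CPM (-0.34, SE 0.183, adjusted p = 0.202). AATK was at 45.6, 36.2, 33.8 and 18.7 CPM in parental and at 29.8, 26.2, 21.0 and 30.4 CPM in knockout tumours, and parental replicate 4 was the lowest of the 8. In 6 of the 20 genes that were not called, the unadjusted p was under 0.05, so their differences were not shown to be absent. WNT5A is a Wnt pathway ligand that binds ROR1, ROR2 and RYK. It fell from a range of 33.9 to 147 CPM in parental to one of 6.77 to 9.29 CPM in knockout tumours (-3.51, SE 0.373, adjusted p = 4.74e-05). WNT5B, the other Wnt ligand listed, rose from 9.19 ± 0.762 to 13.4 ± 0.704 CPM without overlap of the groups (0.54, SE 0.111, edgeR adjusted p = 0.00375). ROR1 was at 2.19 ± 0.284 and 2.18 ± 0.474 CPM.

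The 19 genes without enough counts for a test were MERTK, PDGFRA, PDGFRB, FLT3, FLT1, KDR, INSRR, NTRK2, NTRK3, RET, ALK, EPHA3, EPHA5, EPHA7, EPHA8, TEK, TIE1, ROR2 and MUSK. INSRR had no count in any tumour, EPHA8 had 1 count and MUSK 2, and a count of 0 over 4 libraries allows up to 0.0352 CPM in parental tumours. ALK had 6 counts over the 8 tumours and RET 29, of which 23 were parental (knockout-to-parental ratio 0.260, 95% exact interval 0.0866 to 0.657). NTRK2, the BDNF receptor, had 48 and 15 (0.312, 0.162 to 0.566), and BDNF fell from 4.54 ± 0.847 to 1.73 ± 0.439 CPM (-1.39, adjusted p = 0.00102). EPHA5 had 1 parental and 18 knockout counts (17.9, 2.83 to 748), and TIE1 15 and 30 (1.99, 1.04 to 3.99). These intervals cover counting error only. In the fit with no filter EPHA5 was called higher (adjusted p = 0.0139), and KDR (0.0284) and NTRK2 (0.0382) lower. The values of the groups overlapped for EPHA5 and KDR but not for NTRK2.

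Some members are close neighbours in the genome. CSF1R and PDGFRB lie 465 bp apart on the minus strand of chromosome 5, where CSF1R had up to 131 counts in a tumour and PDGFRB up to 11. KIT lies between PDGFRA and KDR, 360 and 338 kb away, both of which were under the limit for testing. RYK and EPHB1 are 347 kb apart with log2 fold changes of -0.20 and -4.54, LTK and TYRO3 43.8 kb apart with 0.16 and -0.73, and EPHB6 and EPHA1 519 kb apart with -2.38 and -0.20. Exons of some members overlap those of other genes in the annotation, among them MST1R, EPHA4, LMTK3 and EPHB1 of the called genes, and reads there can be lost or assigned to either gene.

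Genes that act with the receptors were then counted from lists chosen with earlier results of these data known. Of 31 ligands tested 7 were higher and 8 lower (48.4% called, median log2 fold change 0.15). Of 12 genes listed as co-receptors 6 were higher and 3 lower (75%, median 0.27). These 12 include genes that are not co-receptors in the strict sense, such as FGFRL1 and FGFBP1, called higher, and IGF2R, called lower. Of 28 adaptors 1 was higher and 6 lower (25.0%, median 0.01), and of 23 genes listed as attenuators or proteolytic regulators 5 were higher and 8 lower (56.5%, median -0.05). That list holds ST14, which activates ligands, and without it and HGFAC, another such protease that was not tested, 5 of 22 were higher and 7 lower. Over all genes tested 27.0% were called, and with lists so chosen the shares are no independent test. Without knockout replicate 2 the co-receptors called numbered 6.

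**Figure D5:**
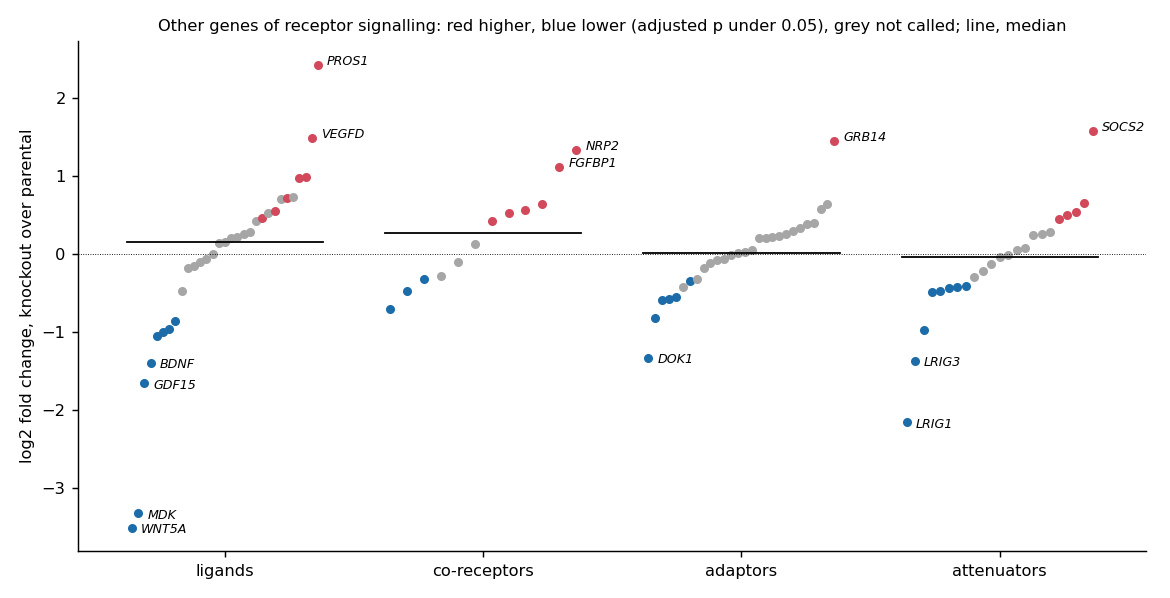
Log2 fold change of knockout over parental tumours for the tested genes of 4 lists (31 ligands, 12 co-receptors, 28 adaptors and 23 attenuators), ordered within each list. Red genes were called higher and blue genes lower at an adjusted p under 0.05, and the line is the median of the list; WNT5A, MDK and LRIG1 are the lowest and PROS1 is the highest.

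Among ligands with the smallest p, MDK, a heparin-binding growth factor, fell from 62.4 ± 31.3 to 6.22 ± 2.18 CPM (-3.33, edgeR adjusted p = 9.67e-05), and GDF15, a ligand of the GFRAL-RET complex, from 49.9 ± 17.4 to 15.8 ± 2.21 CPM (-1.66, adjusted p = 0.0003). GFRAL and RET themselves were under the limit for testing. Of the co-receptors, SORT1, a partner of neurotrophin receptors, fell from 131 ± 10.9 to 79.7 ± 7.51 CPM (-0.71, adjusted p = 0.000236), while CD44, a partner of MET, rose from 276 ± 19.0 to 428 ± 61.5 CPM (0.63, adjusted p = 0.00153) and SDC4, a heparan sulfate proteoglycan, from 328 ± 26.2 to 474 ± 87.3 CPM (0.53, adjusted p = 0.0104). Of the adaptors, GRB14, which binds and inhibits the insulin receptor, rose from 4.73 ± 0.898 to 13.0 ± 0.780 CPM (1.45, adjusted p = 4.28e-05) and DOK1, an inhibitory docking protein, fell from 4.16 ± 0.352 to 1.65 ± 0.310 CPM (-1.33, adjusted p = 0.000374). SH2B2, DOK4, NCK2 and PIK3R1 also fell, by 0.60, 0.55, 0.58 and 0.35 on the log2 scale. The 21 adaptors that were not called had log2 fold changes of -0.43 to 0.64, with an unadjusted p under 0.05 for 6 of them.

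LRIG1, a membrane protein that promotes degradation of several receptor tyrosine kinases, was at 144, 151, 165 and 160.2 CPM in parental and at 28.8, 41.3, 31.6 and 37.1 CPM in knockout tumours. The groups were far apart, and LRIG1 fell by 2.16 on the log2 scale (edgeR adjusted p = 6.92e-07, with an SE of 0.117), the smallest p of the attenuators. Its paralog LRIG3 fell from 28.8 ± 6.24 to 11.1 ± 0.178 CPM (-1.37, adjusted p = 5.00e-05). LNX1, a ubiquitin ligase, fell from 7.10 ± 1.31 to 3.597 ± 0.490 CPM (-0.98, adjusted p = 0.00174). SOCS2, a suppressor of cytokine and growth factor signalling, rose from 2.097 ± 0.362 to 6.27 ± 1.13 CPM (1.58, adjusted p = 0.000154), and SOCS6, which binds KIT and the insulin receptor, from 17.0 ± 0.933 to 24.1 ± 2.096 CPM (0.50, adjusted p = 0.00288).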

How the data were processed

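RNA was measured by RNA-seq in 8 H2122 xenograft tumours, 4 parental and 4 SMARCA4 knockout, all from the vehicle arm. The deposited files hold read counts per gene, made by the authors with TopHat2 2.1.1 and HTSeq 0.11.0 on hg38, per the submitters' processing notes; the roles of these tools, the strand setting and any separation of mouse reads are not given in the sources used here. HTSeq's 5 summary lines were left out of totals and tests (no feature 6.08% to 10.4%, ambiguous 3.98% to 4.31% and not unique 4.52% to 8.11% of the counted total), which left 19785922 to 23191698 gene counts a tumour.

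Genes were kept with filterByExpr (minimum count 10, minimum total 15), scaled by TMM and tested with edgeR 4.0.16's quasi-likelihood test in R 4.3.3, with Benjamini-Hochberg adjustment over 16219 genes, an adjusted p under 0.05 being called. The fitting script was tested on simulated data with known changes. Exact permutation tests compared summed marker levels. Levels per kilobase used the GENCODE 29 exon union, with the longest transcript as an alternative. Named were SMARCA4, all members, of each list up to 6 called genes with the smallest p, and known ligands of members; HGFAC and the marker genes were named after their values were seen. The members and lists were chosen with earlier results of these data known. Alternatives were DESeq2 1.42.0, limma 3.58.1 (voom), RLE and upper-quartile scaling, no filter, a filter of 1 CPM in 4 tumours, the replicate number as a block and leaving out each tumour. Leaving out parental replicates 2 and 3 was chosen after the data were seen.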

Additional observations from a re-analysis of the deposited data

Results flagged for a closer look

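In 7 of 158 sets of 4 tumours 1 tumour lay far from the other 3, where chance gives about 5%. In knockout replicate 4 MET was at 177 CPM, and the other knockout tumours were at 252 to 264 CPM. AXL was at 6.54 CPM in the same tumour, against 13.1 to 13.7 CPM. CBLC, a ubiquitin ligase of the attenuator list, was at 37.7 CPM there, against 28.0 to 29.4 CPM. EFNB2 was at 127 CPM in knockout replicate 3, against 149 to 152 CPM. EPHA1 was at 21.1 CPM in parental replicate 4, against 26.4 to 27.2 CPM. LMTK2 was at 158 CPM in parental replicate 2, against 131 to 134 CPM. PDGFD, a ligand of PDGF receptors, was at 8.31 CPM in parental replicate 3, against 4.82 to 5.27 CPM.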

How the results depend on the processing

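Over all genes the test called 4385, and 3871 to 4902 under the other tools, scalings, filters and the block, 3501 to 4721 without 1 tumour. Of the receptor kinases 14 were called, with 11 to 17 under those settings (11 with the 1 CPM filter, 17 with DESeq2) and 12 to 15 without 1 tumour. The 6 higher numbered 3 to 7 without 1 tumour, 3 of them without knockout replicate 1. Of the 14, 11 were called in every fit run that kept them, all but FGFR2, DDR2 and LMTK3, and 7 others were called in some fit without 1 tumour. The sign of uncalled members turned for ROR1 with upper-quartile scaling (0.0239) and, without parental replicates 2 and 3, for ROR1 (0.10) and CSF1R (1.38), and without 1 tumour INSR ranged from -0.0323 to 0.14, LTK from -0.13 to 0.68 and ROR1 from -0.15 to 0.10; the cause was not tested. Same-numbered tumours correlated at -0.04, -0.02, -0.19 and 0.09 in their deviations and none correlated best with its own number, so the numbers were not taken as pairs. With the replicate block 12 members were called, and FGFR2 (adjusted p = 0.0536) and DDR2 (0.0543) were not. Members under 1 CPM rest on few counts, and a difference there may be undetectable at this depth.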
